A study of Coregonus lavaretus with 13 samples.

Results

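One day after an injection of microcystin-LR (MC-LR), 119 putative long non-coding RNAs (lncRNAs) were counted in the liver of every exposed whitefish (Coregonus lavaretus) and in the liver of no control fish, and none of them was listed as changed on a later day. They are 119 of the 4729 contigs that the study's tables list on any of 3 days, and 119 of the 1100 contigs in the table of day 1. The members were chosen by 2 conditions. A contig had to stand in the table of day 1 and be absent from those of days 6 and 9, which held for 395 contigs, and it had to have 0 raw reads in each of the 4 control fish. The tables hold only contigs with a DESeq2 adjusted p under 0.001 in the comparison of MC-LR and PBS fish, so the difference between these groups chose the contigs and is given here as a description with no test. Absence from a later table says that a contig was not listed there. Its reads on those days were not analysed here.

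The fish were juveniles of the Rutki strain of whitefish, and each library came from the liver of 1 fish. Of the 13 libraries, the 4 of the control group were taken 1 day after an intraperitoneal injection of phosphate-buffered saline (PBS), the solvent of the toxin. The 3 exposed fish of day 1 had received 1 injection of MC-LR (100 μg per kg body mass). They are called MC-LR fish 1, 2 and 3 after the replicate numbers of their labels. Another 3 fish each were taken at days 6 and 9, the latter after a repeated injection of the same dose. They enter below only through related contigs and through the contigs without PBS reads that were listed on those days. All fish were fasted before injection and sampling, and each group had a tank of its own, so that the tank and the toxin cannot be told apart. The labels give no genotype and no other agent for any group.

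MC-LR is a cyclic peptide made by cyanobacteria. It is carried into liver cells by transporters of organic anions, and there it inhibits serine/threonine protein phosphatases of the PP1 and PP2A families, which disturbs the cytoskeleton and can kill the cell. LncRNAs are transcripts beyond the size of small RNAs without a recognised protein product. Some act in the nucleus on chromatin or transcription, others bind proteins or microRNAs, and many are made in few cell types or only under particular conditions. As a class they change fast between species, which is why a lncRNA of a fish often has no named counterpart in mammals. The libraries were made from polyadenylated RNA, so lncRNAs without a poly(A) tail are largely left out.

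A contig is a transcript put together from short reads by the assembler Trinity, without a genome. Its name gives a read cluster, then a component (c), a gene (g) and an isoform (i), so that TRINITY_DN82437_c3_g3_i2 and TRINITY_DN82437_c3_g3_i3 are 2 forms that Trinity assigned to 1 gene. The contigs had been kept as putative lncRNAs because they matched no known protein, no known non-coding RNA and no messenger RNA in the study's searches. The tables give them no gene name or role. Their names are labels of the assembler that no gene table holds, so neither a pathway list nor a list of liver cell markers could be laid against them. Whether a level follows from the RNA in each cell or from the make-up of the cells cannot be told apart in pieces of whole liver.

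Reads per contig were counted by the authors in each fish. In the table of day 1 all contigs together had 109901 to 128767 reads in a PBS fish, and 155677, 209894 and 231470 reads in MC-LR fish 1, 2 and 3. In MC-LR fish 3, 52.9% of these reads lay on a single contig, TRINITY_DN78778_c0_g1_i16, which is no member, against 20.2% in fish 1 and 24.2% in fish 2. Reads were divided by the authors' size factors, recovered from the deposited mean values, and the result is called a normalized count. The factors were 0.96, 1.19 and 0.83 for MC-LR fish 1, 2 and 3 and 1.02 to 1.12 for the PBS fish. Levels are per contig and not per length, since the tables give no lengths, so a difference of level between contigs can include their length.

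The members had low counts per contig in the exposed livers, next to all raised contigs of day 1. Over the 3 MC-LR fish their mean was between 14.0 and 168 normalized counts, with a median of 25.1 and with 32 of the 119 contigs under 20. The median was 80.2 over the 548 raised contigs of day 1. Over all 1100 listed contigs, which include the lowered ones, it was 25.9. Only 8 contigs had a mean of 100 or more, 18 lay between 50 and 100, and 61 between 20 and 50. Together they held 4434 reads in MC-LR fish 1, 7509 in fish 2 and 2600 in fish 3, which is 2.85%, 3.58% and 1.12% of the reads on all listed contigs. These shares also depend on TRINITY_DN78778_c0_g1_i16, which held 20.2%, 24.2% and 52.9% of the listed reads in fish 1, 2 and 3. Normalized, the sums of the members were 4600.0, 6296 and 3138 per fish, or 4678 ± 1581 (SD, n = 3), against 0 in each of the 4 PBS fish. In this scaling fish 2 thus carried the highest summed level and fish 3 the lowest.

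Every member had at least 2 reads in every MC-LR fish. Of the 119 contigs, 105 had at least 5 reads in each of the 3 fish, 67 had at least 10 and 5 had at least 50. All 119 therefore stood above the PBS fish in each exposed fish. The same held for 546 of the 1100 listed contigs (49.6%), which include the lowered ones, and for 99.6% of the 548 raised contigs. The listing rests on this contrast, so nothing particular to the members is read from their count.

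With no read in any PBS fish, a ratio can only be bounded. A count of 0 was taken to allow up to 3 reads over the 4 PBS libraries together, which is a mean of 0.702 normalized counts. Against this limit the members' means over the 3 MC-LR fish were at least 20.0-fold to at least 239-fold higher, with a median bound of 35.8. The bound takes these means as they are, without the spread between the MC-LR fish. The limit covers counting error only. Since 0 PBS reads chose the members, it need not hold for each of them, and the bounds are no guaranteed minimums. With 3 reads allowed in each PBS library the median bound was 8.93. With TMM, a scaling that takes most contigs as unchanged although the listed ones were chosen as changed, the median level became 41.4 and the median bound 74.5.

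**Figure D1:**
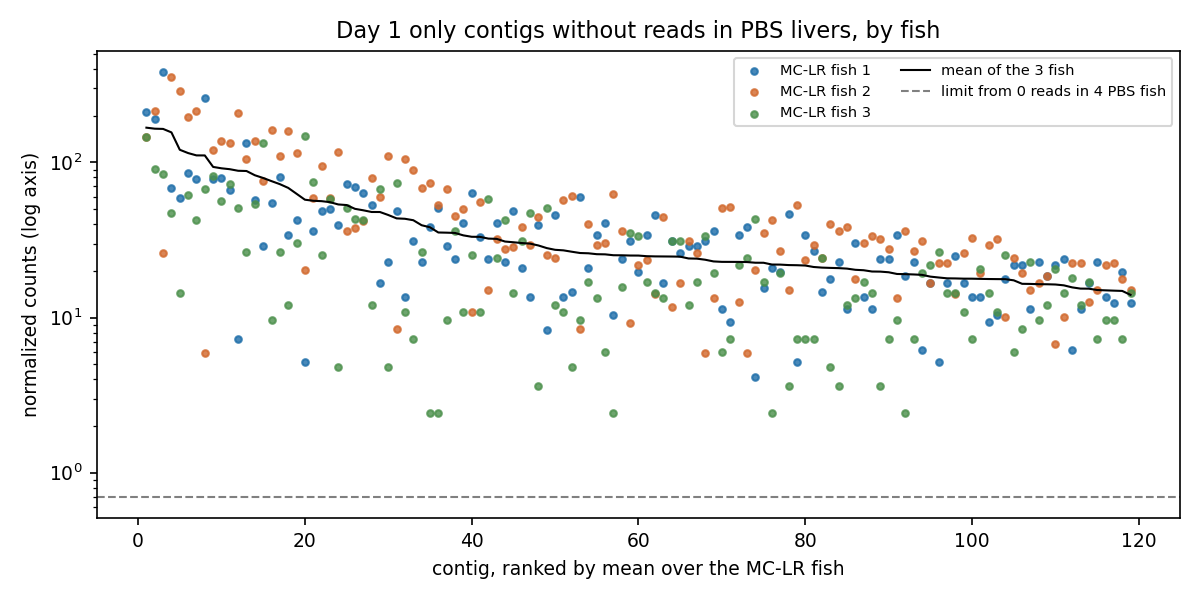
Normalized counts (log axis) of the 119 contigs in MC-LR fish 1, 2 and 3, ranked by the mean of the 3 fish (black line). The dashed line is the limit of 0.702 taken for 0 reads in 4 PBS fish. The means run from 168 down to 14.0, and every point lies above the limit.

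No single contig made up the sum. The highest member held 3.58% of the summed means, the first 5 held 16.5%, the first 10 held 27.7% and the first 20 held 44.1%. The 10 contigs with the highest means are described in turn. In each of them the 4 PBS fish had 0 reads.

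TRINITY_DN76928_c0_g2_i1 had the highest mean, with 203, 174 and 121 reads in MC-LR fish 1, 2 and 3. Normalized, these were 211, 146 and 146, or 168 ± 37.3 (SD, n = 3), and fish 2 and 3 were level. TRINITY_DN97155_c5_g3_i1 had 183, 256 and 75 reads, or 165 ± 65.7 normalized counts (SD, n = 3). It was high in fish 1 and 2 and lower in fish 3. These 2 contigs reached like means by different paths from TRINITY_DN84489_c7_g1_i1, which had 369, 31 and 70 reads. Its 164 ± 191 normalized counts (SD, n = 3) came for 77.6% from fish 1.

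TRINITY_DN82437_c3_g3_i2 had 66, 421 and 39 reads, or 156 ± 171 normalized counts (SD, n = 3), and fish 2 gave 75.3% of them. TRINITY_DN67732_c0_g1_i2 had 57, 344 and 12 reads, or 121 ± 147 (SD, n = 3), and fish 2 gave 79.7%. In both, fish 2 stood far above the other two. TRINITY_DN103570_c4_g1_i1 had 83, 235 and 51 reads, or 115 ± 72.2 (SD, n = 3), and TRINITY_DN82577_c1_g7_i1 had 75, 254 and 35, or 111 ± 90.1 (SD, n = 3). They show the same order of fish, with a smaller gap.

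TRINITY_DN87547_c5_g2_i2 had 250 reads in fish 1, 7 in fish 2 and 56 in fish 3. Its normalized counts of 259, 5.87 and 67.6 differed 44.2-fold between fish 1 and fish 2, the widest ratio among the 119 members. The remaining pair of the first 10 was more even. TRINITY_DN86422_c3_g4_i1 had 75, 144 and 68 reads, or 93.5 ± 23.7 normalized counts (SD, n = 3), and TRINITY_DN88470_c6_g1_i22 had 77, 165 and 47 reads, or 91.7 ± 42.1 (SD, n = 3).

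At the other end, the 5 members with the lowest means rested on 42 to 47 reads in all. TRINITY_DN12195_c0_g1_i1 was the lowest, with 12, 18 and 12 reads and 14.0 ± 1.39 normalized counts (SD, n = 3). TRINITY_DN83316_c7_g1_i1 had 19, 21 and 6 reads, TRINITY_DN35394_c0_g1_i1 had 12, 27 and 8, TRINITY_DN106203_c0_g1_i1 had 13, 26 and 8, and TRINITY_DN100392_c0_g1_i1 had 22, 18 and 6. Their means lay between 14.0 and 15.1, so that contigs silent in PBS fish entered the table of day 1 from about this level upward. At such counts the spread that counting alone gives is wide. It would be 27.1% of the mean for the lowest member.

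The 3 exposed fish did not carry the members evenly. MC-LR fish 2 had the highest normalized count in 66 of the 119 contigs (55.5%), fish 1 in 32 and fish 3 in 21, while fish 3 had the lowest in 64. Fish 2 also led over all 1100 listed contigs (highest in 46.5%) and over the 548 raised ones (43.8%). Fish 3 was lowest in 479 of the 1100 and in 235 of the 548, so neither of these 2 places is particular to the members. Fish 1 was highest in 26.9% of the members, 19.0% of the raised and 27.1% of the listed contigs. For fish 3 these shares were 17.6%, 37.2% and 26.5%, and the differences were not tested. Fish with equal counts, as at 0 reads in lowered contigs, were counted under the lower fish number. The most common order was fish 2, then 1, then 3, which 47 contigs showed, and each of the 5 other orders was shown by 8 to 19. The median member stood at 23.9 normalized counts in fish 1, 31.0 in fish 2 and 15.7 in fish 3. When counts were scaled by the clean reads of each library, fish 2 was highest in 77 contigs and fish 1 in 23. With TMM, fish 2 was highest in 51 and fish 1 in 42, so the lead of fish 2 was smaller. The summed levels with TMM were 8259, 8762 and 5575 in fish 1, 2 and 3. The fish also differ in depth and in size factor, and the part of either in this order was not tested.

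In 65 of the 119 members (54.6%) more than 50% of the normalized counts came from 1 fish, which was fish 2 for 43 contigs, fish 1 for 15 and fish 3 for 7. Over all 548 raised contigs of day 1 this share was 52.2%, and over all 1100 listed ones 58.4%. There the fish was fish 2 for 126 of 286 raised contigs, fish 1 for 49 and fish 3 for 111. Of 642 listed contigs it was fish 2 for 347, fish 1 for 140 and fish 3 for 155. Fish 3 thus held a smaller part among the members, and this difference was not tested. TRINITY_DN100884_c5_g3_i2 was the most lopsided, with 5, 24 and 122 reads, so that fish 3 held 85.3% of its 57.5 ± 78.1 normalized counts (SD, n = 3) per fish. TRINITY_DN91521_c7_g2_i1 had 10, 75 and 2 reads and TRINITY_DN75420_c0_g1_i1 had 13, 126 and 9, with 83.1% and 81.3% in fish 2. The members closest to an even level were TRINITY_DN102227_c7_g2_i2, TRINITY_DN12195_c0_g1_i1 and TRINITY_DN106262_c13_g1_i1. The first had 48, 70 and 48 reads, or 55.5 ± 4.93 normalized counts (SD, n = 3), and the last had 16, 15 and 14 reads, or 15.4 ± 2.41 (SD, n = 3). TRINITY_DN102227_c7_g2_i2 ranked 23 by level among the 119 and had a spread of 8.89% of its mean, less than the 13.6% of counting alone.

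**Figure D2:**
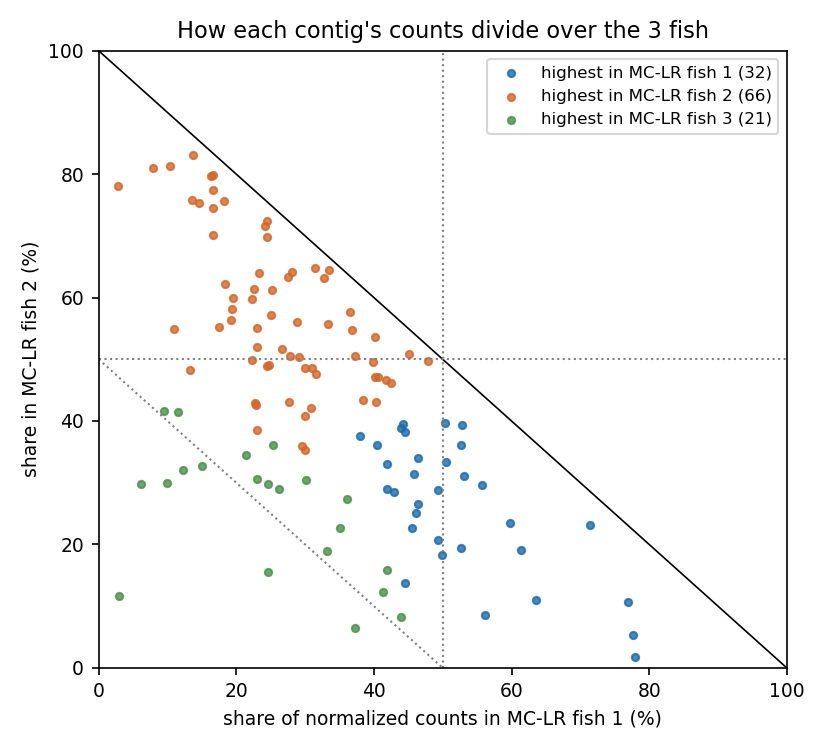
Share of each contig's normalized counts in MC-LR fish 1 (x axis, %) and fish 2 (y axis, %), the rest being fish 3, with the solid line at a share of 0 for fish 3. Dotted lines mark 50% in a fish; 65 of the 119 contigs lie beyond one of them, 43 of these on the side of fish 2.

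The coefficient of variation over the 3 MC-LR fish, the SD as a percent of the mean, had a median of 58.4% and ran from 8.89% to 136%. Counting error alone would give a median of 20.2%, and the observed value was above its own counting value for 111 of the 119 members and above double that value for 87. The highest fish exceeded the lowest by less than 2-fold in 23 contigs and by more than 10-fold in 20, with a median of 3.49-fold. No share over all contigs was computed for these fold counts. The coefficient of variation was above its counting value in 530 of the 548 raised contigs too. It was above double that value in 476 of these 548 and in 688 of all 1100 listed contigs. Neither count is therefore read as a trait of the members. The listing test used this spread, which limits how large it could be.

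For comparison, 225 raised contigs were also listed on day 1 only but had reads in PBS fish. Of these, 167 had means within the range of the members, although at a median of 64.9 normalized counts against 25.1. Their coefficient of variation had a median of 56.1% (quartiles 36.1% and 75.4%), against quartiles of 41.2% and 77.3% for the members. Counting alone would give medians of 12.6% and 20.2%. The observed quartile ranges of both sets overlapped, but their levels were not matched beyond the outer range. Of the 225, fish 2 was highest in 132 (58.7%), fish 1 in 33 (14.7%) and fish 3 in 60 (26.7%), against 55.5%, 26.9% and 17.6% of the members. Fish 2 thus led in both sets, and these shares were not tested, since contigs of 1 liver are not independent.

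Across the 119 members, levels in one exposed fish said little about levels in another. Spearman's rho over contigs was 0.24 for fish 1 and 2, 0.26 for fish 1 and 3 and 0.01 for fish 2 and 3. The contigs of a fish share its library and its size factor. The part of the members' range of levels in these values was not tested. Over the 167 contigs with PBS reads rho was 0.53, 0.30 and 0.16. Their levels were higher, with a median of 64.9 normalized counts against 25.1, so these values are not compared at like depth.

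**Figure D3:**
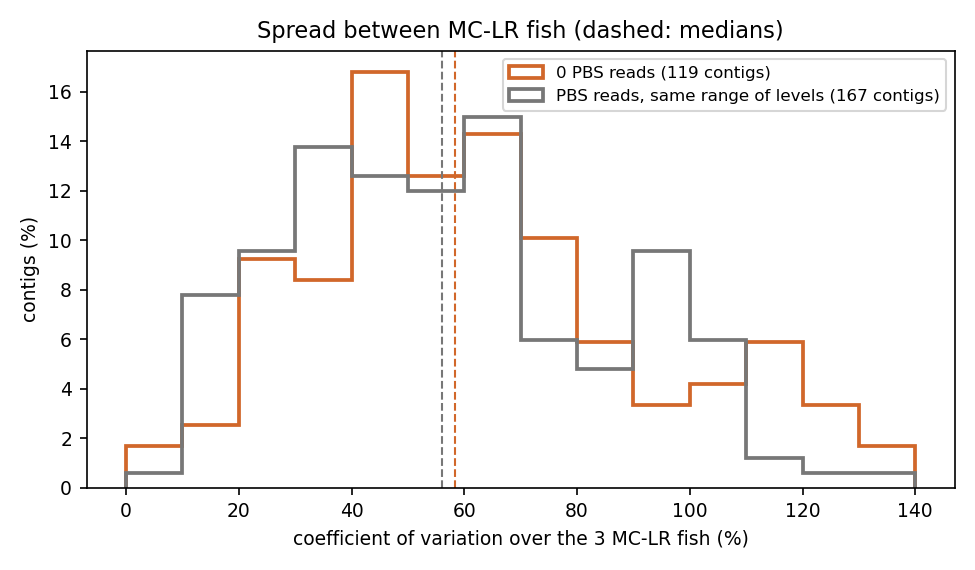
Coefficient of variation over the 3 MC-LR fish (x axis, % of the mean) for the 119 contigs with 0 PBS reads and for the 167 day 1 only raised contigs with PBS reads in the same range of levels (y axis, % of the contigs of each set). The dashed medians are 58.4% and 56.1%, and both sets reach from under 10% to beyond 130%.

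Of the 344 raised contigs listed on day 1 only, the 119 members are those at 0 PBS reads. The number of contigs fell steeply across this border. There were 26 contigs with 1 read in the 4 PBS fish together, 20 with 2, 9 with 3 and 40 with 4 to 10. The remaining 130 had more, and 45 of these had over 100. Levels in MC-LR fish were higher where PBS fish had more reads. The median of the means was 25.1 normalized counts at 0 PBS reads, 27.6 at 1, 49.4 at 2, 96.9 at 11 to 100 and 338 above 100. A contig that is higher in PBS fish must be higher still in MC-LR fish to be listed, so this order is partly set by the listing.

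Of the 26 contigs with 1 PBS read, 2 had an MC-LR fish at 0 reads, which none of the members had. The 3 with the highest means follow. TRINITY_DN79375_c3_g1_i5 had 1 read in PBS fish 4 and 49, 205 and 2 reads in the MC-LR fish, a mean of 75.0 normalized counts. TRINITY_DN67030_c0_g1_i2 had 1 read in PBS fish 2 and 48, 117 and 36 in the MC-LR fish. TRINITY_DN68370_c0_g1_i1 also had 1 read in PBS fish 2, and 49, 79 and 24 in the MC-LR fish. With 3 of the 4 PBS fish at 0, each of these would have been a member had a single read been missed. With any 1 PBS fish left out, 129 to 136 contigs met the rule in place of 119.

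**Figure D4:**
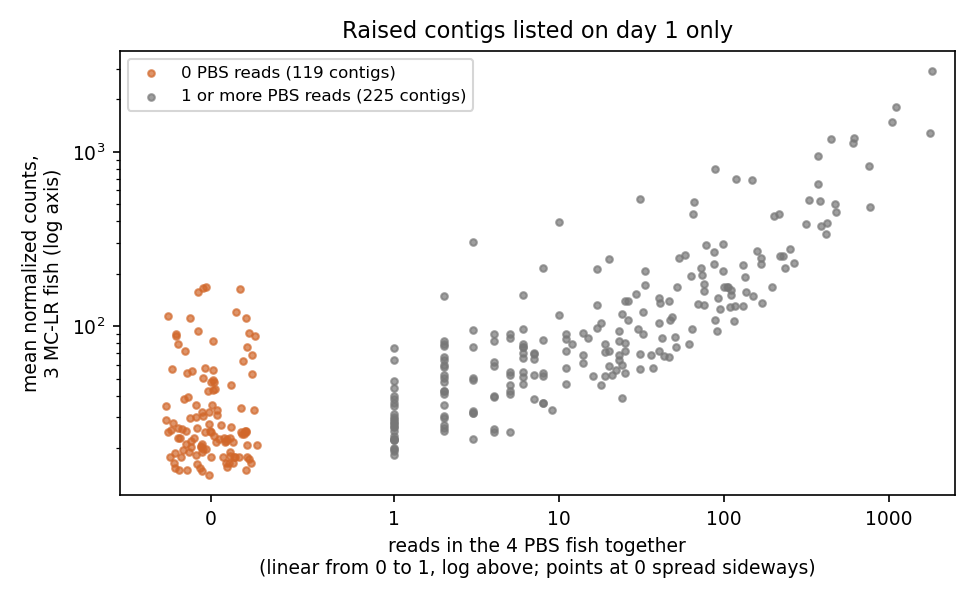
Mean normalized counts over the 3 MC-LR fish (y axis, log) against the reads in the 4 PBS fish together (x axis, linear up to 1 and log above) for the 344 raised contigs listed on day 1 only. The 119 members stand at 0 PBS reads with means of 14.0 to 168, beside 26 contigs at 1 read with means of 18.2 to 75.0.

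The rule took silence in PBS fish contig by contig, which does not show whether the whole gene was silent. The 119 members came from 116 Trinity genes in 115 components. An isoform number above 1, which means that Trinity built further contigs for the gene, was carried by 35 members (29.4%), up to 22. It was carried by 107 of the 225 control-expressed contigs of day 1 only (47.6%) and by 544 of all 1100 listed ones (49.5%). A contig with number 1 can have further contigs too, so these are not shares of genes with more than 1 contig. The members and the 225 also differed in level, with median means of 25.1 and 81.9 normalized counts. The difference between the shares was not tested. Reads of the further contigs of these genes, where they were not listed, were not analysed here.

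For 10 members the tables list another contig of the same gene, and for 16 when components are joined instead of genes. Near-identical contigs can share or trade reads, so the counts of such contigs are uncertain one by one. Of these 10, 6 form 3 genes in which both contigs were members, so that the gene was silent in PBS fish in both listed forms. TRINITY_DN82437_c3_g3_i2 and TRINITY_DN82437_c3_g3_i3 had 66, 421 and 39 against 22, 131 and 4 reads, so that the first stood 3.0, 3.2 and 9.8 times as high in fish 1, 2 and 3. TRINITY_DN87767_c1_g3_i5 and TRINITY_DN87767_c1_g3_i1 had 78, 131 and 22 against 39, 60 and 9 reads, a ratio of 2.0, 2.2 and 2.4. TRINITY_DN75420_c0_g1_i1 and TRINITY_DN75420_c0_g1_i3 had 13, 126 and 9 against 9, 62 and 6 reads, a ratio of 1.4, 2.0 and 1.5. In all 3 genes both contigs were highest in fish 2 and lowest in fish 3. This was also the most common order, shown by 47 of the 119 members. Among the 225 control-expressed contigs of day 1 only, 98 showed it, so it is not read as a trait of these pairs.

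In 2 other genes the second contig was listed on day 1 but had a few PBS reads. TRINITY_DN87547_c5_g2_i1 had 0, 0, 0 and 3 reads in PBS fish 1 to 4 and 261, 524 and 172 in the MC-LR fish, or 306 ± 120 normalized counts (SD, n = 3). The member of this gene, TRINITY_DN87547_c5_g2_i2, had 250, 7 and 56 reads. Per read of the first contig it thus had 0.958 in fish 1, 0.0134 in fish 2 and 0.326 in fish 3. Both contigs had reads in each MC-LR fish of day 1, and their proportion differed between these fish far more than in the 3 genes above. Whether the 7 reads in fish 2 came from the member's own form or were traded between the contigs was not tested. TRINITY_DN87436_c1_g7_i4 had 1 read in PBS fish 2 and 8, 68 and 14 reads in the MC-LR fish, beside 41, 138 and 25 for the member TRINITY_DN87436_c1_g7_i2.

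**Figure D5:**
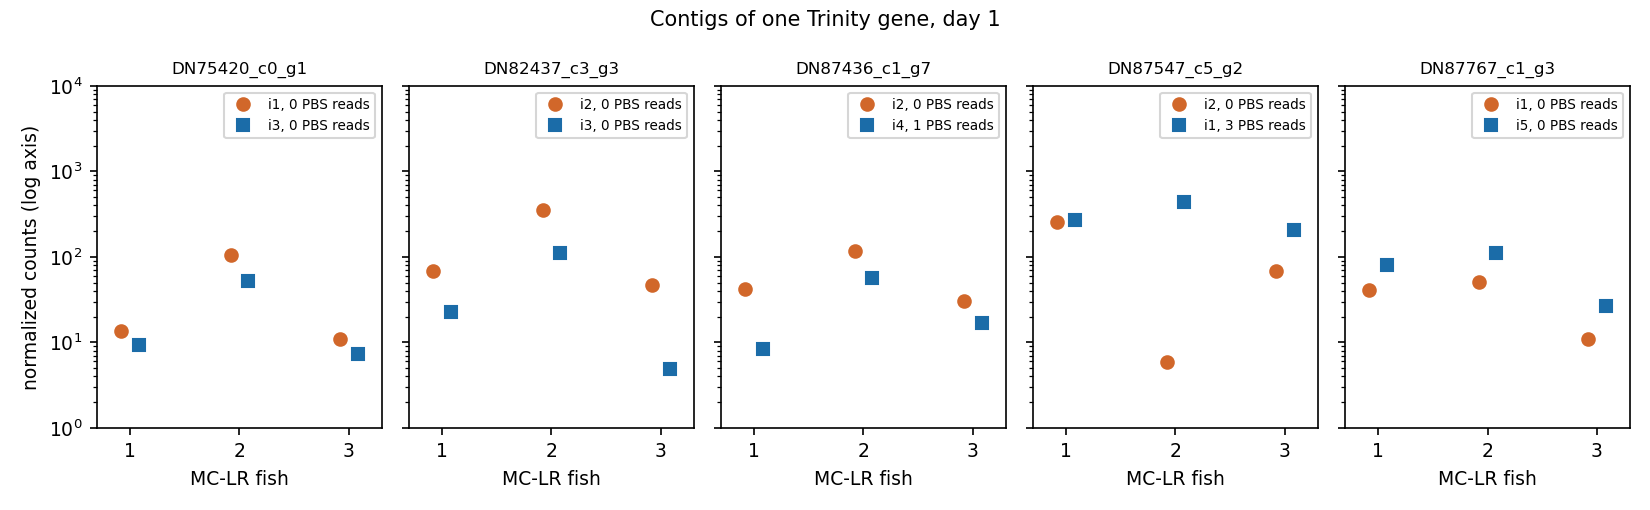
Normalized counts (y axis, log) in MC-LR fish 1, 2 and 3 (x axis) of both listed contigs of 5 Trinity genes on day 1; circles are a member with 0 PBS reads, squares the other contig, with its PBS reads in the legend. In DN87547_c5_g2 the member stands at 259, 5.87 and 67.6 beside 271, 439 and 208 for the other contig, while the pairs of the other genes keep the same order of fish or nearly so.

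In the last 2 genes the other contig was listed on a later day only. TRINITY_DN112068_c5_g1_i7 was a member with 33, 28 and 6 reads on day 1, or 21.7 ± 13.6 normalized counts (SD, n = 3). Another contig of its gene, TRINITY_DN112068_c5_g1_i6, had 327, 169, 65 and 288 reads in the 4 PBS fish and 1476, 1694 and 870 in the MC-LR fish of day 6. In normalized counts of the day 6 table this was 218 ± 124 (SD, n = 4) and 1209 ± 399 (SD, n = 3), and the groups did not overlap. This gene was therefore expressed in PBS livers although the member contig was not counted there. TRINITY_DN109781_c8_g1_i12 was a member with 32, 66 and 9 reads on day 1. TRINITY_DN109781_c8_g1_i9 of the same gene had 1, 2, 1 and 2 reads in PBS fish and 17, 17 and 81 in the MC-LR fish of day 9, or 1.71 ± 0.578 (SD, n = 4) and 28.7 ± 26.3 (SD, n = 3) in normalized counts of that table. Both of these contigs were listed for their own difference against the same 4 PBS fish, so no test is given. Leaving out the members of these 2 genes, 117 had no contig of their gene in the later tables.

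Contigs without a PBS read made up a larger part of the raised contigs on day 1 than on later days. They were 149 of 548 on day 1 (27.2%), 160 of 1311 on day 6 (12.2%) and 104 of 966 on day 9 (10.8%). Among raised contigs listed on 1 day only they were 119 of 344 on day 1 (34.6%), 77 of 500 on day 6 (15.4%) and 41 of 231 on day 9 (17.7%). The 3 tables share their PBS fish, were normalized separately and were listed by separate tests, so these shares stand side by side without a test of their difference. The 77 contigs of day 6 and the 41 of day 9 had median levels of 19.8 and 22.5 normalized counts in their MC-LR fish, beside 25.1 for the 119 members on day 1.

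The other 30 contigs silent in PBS fish and raised on day 1 were listed again later, all 30 on day 6 and 10 of them also on day 9. Their means on day 1 ran from 18.1 to 840.2 normalized counts, with a median of 46.7. None of the members exceeded 168. Of these 30 contigs, fish 1, 2 and 3 had the highest level in 10, 9 and 11, and 20 of them (66.7%) had more than 50% of their normalized counts in 1 fish, beside 54.6% of the members. Day 1 levels chose both sets in part, and these differences were not tested.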

How the data were processed

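RNA of 13 whitefish livers was sequenced as stranded poly(A) libraries. According to the study's methods and processing notes, reads were trimmed (Trimmomatic 0.36), assembled by Trinity from 52 fish, filtered and mapped with Bowtie2. The authors deposited raw counts of reads per contig and fish, from samtools idxstats, in a table for each day, with a mean signal over 7 fish (counts divided by size factors) computed by the authors. The columns of the authors' DESeq2 1.28.0 comparisons (fold changes, errors and p-values) were not used, beyond a check that each adjusted p was under 0.001. Only listed contigs are in the tables.

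Size factors were solved by least squares from the deposited mean signal and the counts. The means came back with a relative error of at most 1.8e-14. On simulated counts, with means formed by the same formula, the step returned the factors that were set. That checks the algebra only, and not how the deposited means were formed. Work was done in Python 3.11.15 (numpy 2.4.6, pandas 2.3.3), with TMM factors from edgeR 4.0.16. Alternatives were scaling by the clean reads of the study's library statistics and by TMM, read minimums, another floor, joined components and left-out fish. Some contigs rest on few reads, and the floors cover counting error only. No test of MC-LR against PBS fish was made, as the rule used the day 1 contrast. Dixon's limit served only to flag single fish.

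The members, lists and naming rule were chosen with earlier results of these data known. Named are the 10 members with the highest means, the 5 with the lowest, with a mean of at least 10 the 3 most even and the 3 most uneven over fish, members with another listed contig of their gene, and the 3 highest contigs with exactly 1 PBS read.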

Additional observations from a re-analysis of the deposited data

Results flagged for a closer look

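In 5 of the named contigs outside the members, 1 PBS fish stood apart from the other three, which had 0 reads, so that the gap of the highest fish took up the whole range (a ratio of 1.0, beyond Dixon's 95% limit for 4 fish). For TRINITY_DN87547_c5_g2_i1 it was the 3 reads of PBS fish 4, and for TRINITY_DN87436_c1_g7_i4, TRINITY_DN79375_c3_g1_i5, TRINITY_DN67030_c0_g1_i2 and TRINITY_DN68370_c0_g1_i1 it was 1 read in 1 fish. With 3 fish at 0 reads this ratio is 1.0 whatever the fourth fish holds, so it says no more than that 1 fish had 1 to 3 reads. The rate of about 1 group in 20 that chance marks does not apply to such counts.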

How the results depend on the processing

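The number of silent day 1 only contigs was 119, and it ranged from 117 to 149 when a PBS read was allowed, genes were joined or later listing was ignored, and from 129 to 136 without 1 PBS fish, an alternative chosen after seeing the data. With TMM the median level was 41.4 instead of 25.1, the summed level 7532 instead of 4678 and the median fold bound 74.5 instead of 35.8. Averaged over fish, TMM moved the log2 ratio of MC-LR to PBS by 1.05 and clean reads by -0.35. The levels of MC-LR fish 1, 2 and 3 moved by 0.84, 0.48 and 0.83 with TMM and by -0.40, 0.03 and -0.22 with clean reads. The shift of a contig therefore depends on how its counts divide over the fish. A floor of 3 counts per PBS library brought the bound to 8.93, a minimum of 10 reads per fish left 67 members of 119, joined components raised the members with a listed partner from 10 to 16, and raw reads put fish 3 highest in 12 contigs instead of 21. The floor, the minimum, the joining and the scalings shift values by their construction. Why the scalings differ from each other was not tested. Without each MC-LR fish the median level was 22.0 to 29.4, the summed level 3869 to 5448, the median coefficient of variation 44.7% to 59.0% and the bound 31.4 to 42.0, and without each PBS fish the bound was 26.4 to 27.2. No paired analysis was possible because the fish are separate animals that no label pairs, and the values given come from no test. Depth limits what 0 reads can show. The limit of 3 reads over the PBS fish is a setting that need not hold for every member, since 0 reads chose them.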
